A study of Mus musculus with 6 samples.

Results

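Dense peak clusters are stretches of the regulatory T cell (Treg cell) genome in which many sites of open chromatin lie close together. They were chosen by a rule on peak density. All peaks called in Bcl11b knockout (KO) or wild-type (WT) Treg cells on chromosomes 1 to 19 were merged where they overlapped by at least 1 bp. Merged peaks whose edges lay no more than 0.0125 Mb apart were joined. Joined stretches with at least 6 merged peaks were kept. The rule gave 911 clusters with 7258 member peaks, out of 46288 merged peaks on these chromosomes and 47464 on all chromosomes. Because peak positions selected the members, the number, span and spacing of the clusters are given as a description only.

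The peaks come from ATAC-seq, in which a transposase cuts open DNA and inserts sequencing adapters, of CD4-positive, YFP-positive cells sorted from the spleen and draining lymph nodes of C57BL/6 mice. KO mice were Bcl11b f/f Foxp3-IRES-YFP-Cre and WT mice were Bcl11b w/w Foxp3-IRES-YFP-Cre, so both groups carried the YFP and Cre cassette at Foxp3, whose promoter drives it in cells that express Foxp3, and in KO mice the Cre acts on the floxed Bcl11b alleles. Each group had 3 samples of 100000 cells, and age, sex, any treatment behind the word draining and the deleted part of Bcl11b are not given in the labels. Peaks in both Bcl11b lists are therefore no check of the deletion. Each group is represented by 1 list for its 3 samples, with 36182 peaks for KO and 38258 for WT on build mm10. The lists hold no read counts, so depth is unknown, the spread within a group cannot be measured and no p-value is given. Intervals in square brackets are exact Clopper-Pearson 95% intervals, which reflect counting error alone; peaks that lie side by side are not independent observations.

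Enhancers are stretches of DNA that bind transcription factors and raise the activity of genes at a distance. Groups of enhancers packed close together, often called stretch enhancers or super-enhancers, lie near genes that define the identity of a cell. In T cells such groups are known at genes for lineage factors, cytokine receptors and signalling molecules. Bcl11b is a zinc finger transcription factor needed for T cell commitment and for the function of Treg cells, and it binds both active and repressed sites together with chromatin-modifying complexes. The density of open sites is only one of the features used to define such enhancer groups, and histone marks were not measured here.

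A member is called KO-only or WT-only where no peak of the other list overlapped it, and shared where both lists held it. A peak missing from a list was not called there, so the DNA there may still have been open. With bulk samples, fewer cells of a type with an open site and less signal per cell cannot be told apart.

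Promoters that carried a member peak are printed as examples from the 3 classes and do not describe a class as a whole. The windows below run from 250 bases before to 30 bases after a gene start, read 5′ to 3′ on the strand of the gene, and come from RefSeq on GRCm38.p6, the coordinates of mm10. Capitals mark the bases inside the member peak. For each genotype-specific class the 3 promoters at clusters named below whose peak stood earliest in its list are given, and the promoters of Ctla4 and Il2ra, 2 genes that mark Treg cells, were added after their values were seen. KO-only peaks covered 193 bases at Brd2 (chr17:34122578-34122857, minus strand), which encodes a reader of acetylated histones. They covered 170 bases at Rhoh (chr5:65863334-65863613, plus strand), a GTPase of blood cells needed for T cell receptor signalling, and 35 bases at Pim1 (chr17:29490535-29490814, plus strand), a kinase gene induced by cytokines.
Brd2: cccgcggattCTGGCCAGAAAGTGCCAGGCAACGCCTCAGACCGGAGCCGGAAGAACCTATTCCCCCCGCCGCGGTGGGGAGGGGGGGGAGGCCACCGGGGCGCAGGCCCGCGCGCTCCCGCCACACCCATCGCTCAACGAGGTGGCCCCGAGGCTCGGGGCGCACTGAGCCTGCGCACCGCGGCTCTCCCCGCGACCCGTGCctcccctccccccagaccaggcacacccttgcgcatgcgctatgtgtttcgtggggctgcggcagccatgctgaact
Rhoh: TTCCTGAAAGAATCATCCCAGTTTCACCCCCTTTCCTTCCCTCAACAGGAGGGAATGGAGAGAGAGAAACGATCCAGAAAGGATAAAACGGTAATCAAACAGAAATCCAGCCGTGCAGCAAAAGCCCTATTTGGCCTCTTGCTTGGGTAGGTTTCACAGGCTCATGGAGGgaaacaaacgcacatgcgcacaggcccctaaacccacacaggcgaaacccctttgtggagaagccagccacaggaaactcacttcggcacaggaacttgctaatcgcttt
Pim1: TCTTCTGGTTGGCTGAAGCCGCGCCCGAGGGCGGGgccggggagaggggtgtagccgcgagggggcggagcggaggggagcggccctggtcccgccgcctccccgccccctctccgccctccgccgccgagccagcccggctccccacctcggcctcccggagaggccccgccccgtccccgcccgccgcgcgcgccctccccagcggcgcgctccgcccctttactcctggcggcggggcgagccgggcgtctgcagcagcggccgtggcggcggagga
WT-only peaks covered 188 bases at Tagap (chr17:7925750-7926029, plus strand), which encodes a GTPase-activating protein of activated T cells. They covered 45 bases at Cd27 (chr6:125236998-125237277, minus strand), a co-stimulatory receptor, and 62 bases at Cd247 (chr1:165788431-165788710, plus strand), the zeta chain of the T cell receptor complex.
Tagap: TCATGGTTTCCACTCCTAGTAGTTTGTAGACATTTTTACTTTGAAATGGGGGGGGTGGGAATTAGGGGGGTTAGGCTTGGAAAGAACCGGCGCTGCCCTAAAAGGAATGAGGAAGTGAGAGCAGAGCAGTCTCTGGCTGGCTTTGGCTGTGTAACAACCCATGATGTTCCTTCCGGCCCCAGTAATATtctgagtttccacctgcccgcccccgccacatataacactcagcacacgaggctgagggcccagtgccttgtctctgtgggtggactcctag
Cd27: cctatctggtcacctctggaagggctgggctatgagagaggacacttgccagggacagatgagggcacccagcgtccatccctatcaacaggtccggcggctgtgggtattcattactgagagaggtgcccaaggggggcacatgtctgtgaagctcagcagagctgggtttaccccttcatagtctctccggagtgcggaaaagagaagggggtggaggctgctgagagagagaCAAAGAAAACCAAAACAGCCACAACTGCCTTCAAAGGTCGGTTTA
Cd247: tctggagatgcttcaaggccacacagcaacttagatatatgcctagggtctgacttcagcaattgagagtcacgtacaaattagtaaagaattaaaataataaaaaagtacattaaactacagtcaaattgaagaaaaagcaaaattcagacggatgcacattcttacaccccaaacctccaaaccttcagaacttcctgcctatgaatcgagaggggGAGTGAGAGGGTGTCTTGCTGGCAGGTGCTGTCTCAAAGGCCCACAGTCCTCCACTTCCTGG
Shared peaks covered 156 bases at Ctla4 (chr1:60908775-60909054, plus strand), an inhibitory receptor, and 238 bases at Il2ra (chr2:11642542-11642821, plus strand), the alpha chain of the interleukin-2 receptor.
Ctla4: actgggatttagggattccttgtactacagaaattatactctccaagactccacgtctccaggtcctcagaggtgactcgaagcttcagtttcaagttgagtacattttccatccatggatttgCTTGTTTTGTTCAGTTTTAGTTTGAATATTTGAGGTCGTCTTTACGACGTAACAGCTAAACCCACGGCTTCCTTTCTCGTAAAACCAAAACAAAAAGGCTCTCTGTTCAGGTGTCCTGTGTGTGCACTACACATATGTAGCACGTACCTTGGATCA
Il2ra: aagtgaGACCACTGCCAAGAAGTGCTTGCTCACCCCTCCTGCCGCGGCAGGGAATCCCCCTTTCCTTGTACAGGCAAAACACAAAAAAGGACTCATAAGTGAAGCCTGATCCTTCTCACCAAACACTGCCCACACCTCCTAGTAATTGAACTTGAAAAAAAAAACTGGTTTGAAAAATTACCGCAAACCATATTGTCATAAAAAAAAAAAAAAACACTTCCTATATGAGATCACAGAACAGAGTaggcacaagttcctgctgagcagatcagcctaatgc
The printed Tagap window held the ETS motif AGGAAGT, the E-box CACCTG and the SP/KLF motif GGGCGG once each, on either strand. The Pim1 window held GGGCGG 7 times and the CTCF motif AGGGGGCG 2 times, and these letters can overlap. Cd247 had AGGAAGT 2 times and CACCTG once, Ctla4 had CACCTG and the IRF motif GAAANNGAA once each, and Il2ra had AGGAAGT once. Cd27 had the BCL11 motif TGACCA once, and its match lay outside the member peak. Also outside the member peaks were the E-box and SP/KLF matches at Tagap, the IRF match at Ctla4 and the more upstream AGGAAGT match at Cd247. At Pim1 the CTCF matches and all GGGCGG matches but the most upstream lay outside the peak. None of the 14 motifs searched occurred in the Brd2 or Rhoh window.

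Clusters held a median of 7 members, with 6 to 25 members each. Their median span was 33.9 kb, between 11 and 134.6 kb, and together they covered 34.2 Mb. Neighbouring members lay a median of 5.12 kb apart. Most clusters were small: 352 of the 911 held exactly 6 members, while 599 joined stretches held 5 merged peaks and so fell just outside the rule. Shared peaks made up 56.4% of the peaks in clusters of 6 and 54.4% of those in stretches of 5, and KO-only peaks made up 47.9% of the genotype-specific peaks in clusters of 6 and 49.5% in stretches of 5. Large clusters of 10 or more members numbered 177. Members took a share of the merged peaks of each chromosome that ran between 11.2% on chromosomes 3 and 14 and 20.7% on chromosome 11, which alone carried 79 clusters.

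**Figure D1:**
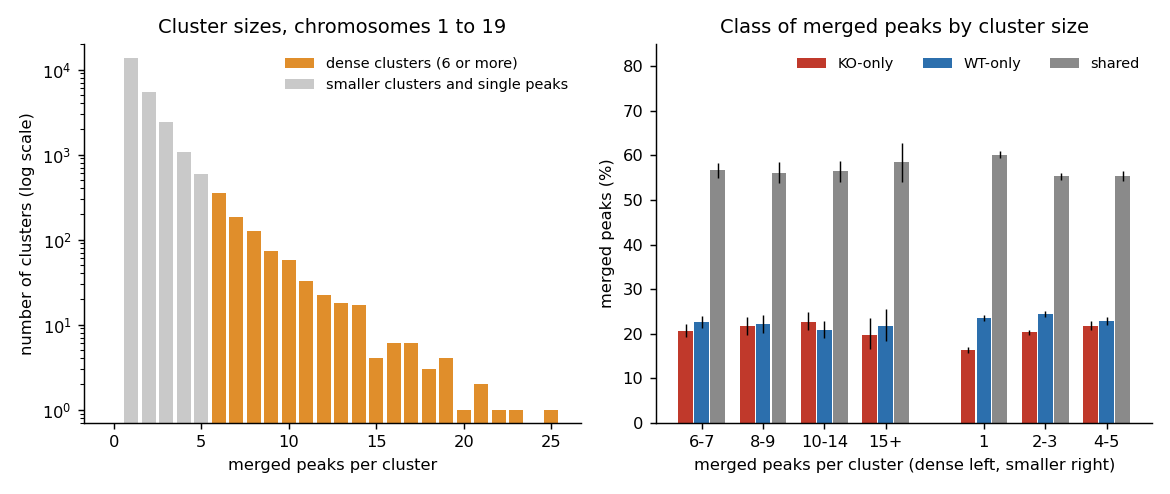
Left, the number of joined stretches (log axis) by merged peaks per stretch, with the 911 dense clusters of 6 or more in orange and smaller stretches in grey. Right, the percent of merged peaks that were KO-only (red), WT-only (blue) or shared (grey) by size, dense clusters on the left and smaller stretches on the right; bars are shares and lines are exact 95% intervals. Shared peaks stay between 55.3% and 60.2% in the size classes drawn, while the gap between the KO-only and WT-only bars is widest for single peaks.

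The cells behind the lists carried open sites at the genes that mark Treg cells. All 7 Treg markers had a peak within 2 kb in the KO list and in the WT list, with 32 KO peaks and 26 WT peaks in sum. Ikzf2 alone had 12 of these KO peaks and 7 of these WT peaks. Foxp3 itself had 1 peak in each list but lies on the X chromosome outside the rule. No share over all coding genes is set beside the marker counts given here. All 5 T cell markers had a peak in both lists. Of 6 B cell markers, 3 had a KO peak and 2 a WT peak, with 8 KO and 6 WT peaks in sum, and Cd79a and Ms4a1 were among those with none. Of 6 myeloid markers, 3 had a KO peak and 2 a WT peak, with 5 KO and 3 WT peaks in sum, and Lyz2, Csf1r and Adgre1 had none. NK markers had a KO peak at 1 and a WT peak at 2 of 4 genes, and erythroid markers had a KO peak at 2 and a WT peak at 4 of 4 genes. CD8 T cell markers had a peak at 1 of 2 genes in each list, and non-blood markers had a KO peak at 4 and a WT peak at 3 of 6. An open site is not expression, and what other cells contributed to any cluster was not tested.

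KO and WT cells shared most sites of the dense clusters. Of the 7258 members, 4111 were shared (56.6% [55.5 to 57.8]), 1548 were KO-only (21.3% [20.4 to 22.3]) and 1599 were WT-only (22.0% [21.1 to 23.0]). Over all 46288 merged peaks, 19.5% were KO-only and 23.5% were WT-only. Among the 39030 merged peaks outside the clusters, 57.0% were shared, 19.2% were KO-only and 23.8% were WT-only. Members were thus close to the remaining peaks in the shared share, and the balance of the genotype-specific peaks differed: KO-only peaks were 49.2% [47.4 to 50.9] of genotype-specific members and 44.7% [43.9 to 45.4] of the other genotype-specific peaks. The 2 intervals do not overlap, but the KO list is the shorter one. Its usual peak width of 193 bp is below the 219 bp of the WT list. The part of list length and of peak width in this difference was not tested. With the WT list shortened to the length of the KO list the share among members was 51.4%. The share among other peaks was not computed with that list, so the value does not bear on the difference. By size, it was 41.0% for single peaks, 45.4% for stretches of 2 to 3, 48.8% for 4 to 5, 47.8% for 6 to 7, 49.5% for 8 to 9, 52.1% for 10 to 14 and 47.7% for 15 or more.

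A peak of either list adds to the density that the rule uses, so clusters were also drawn from 1 list and read with the other. The KO list alone gave 420 clusters with 3184 peaks, of which a WT peak overlapped 74.1% [72.6 to 75.6], against 74.5% of KO peaks outside such clusters. The WT list alone gave 437 clusters with 3281 peaks, of which a KO peak overlapped 74.3% [72.7 to 75.7], against 70.5% [70.0 to 70.9] of WT peaks outside. Split by row order into 4 equal parts of each list, a rank of peak strength as explained below, these gaps changed. KO peaks in KO-defined clusters, against other KO peaks, were overlapped in 90.2% and 92.8% of cases in part 1, at the top, in 74.8% and 82.1% in part 2, in 67.0% and 72.4% in part 3, and in 53.1% and 52.2% in part 4. WT peaks in WT-defined clusters, against other WT peaks, were overlapped in 94.2% and 94.9% in part 1, in 81.6% and 84.7% in part 2, in 62.9% and 65.8% in part 3, and in 41.2% and 37.95% in part 4. The higher total share of the WT-defined clusters was thus not found in parts 1 to 3. For the KO list, clustered peaks had the lower share in these parts, and the intervals did not overlap. For the WT list this held in part 2 only. There the intervals overlapped in part 1 (92.4 to 95.7% against 94.4 to 95.4%) and in part 3 (59.5 to 66.2% against 64.8 to 66.8%). In part 4 the intervals of both lists overlapped. Of the KO-defined clusters, 253 of 420 (60.2%) overlapped a WT-defined cluster, and 255 of 437 WT-defined clusters (58.4%) overlapped a KO-defined one. Read back onto the 911 clusters, 253 (27.8%) met a dense cluster of each list by itself, 167 (18.3%) met one of the KO list only, 180 (19.8%) met one of the WT list only, and 311 (34.1%) were dense only when both lists were pooled.

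Most dense clusters mixed both kinds of genotype-specific site. KO-only and WT-only members stood together in 650 clusters, 112 had KO-only but no WT-only members, 121 had WT-only but no KO-only members, and 28 had neither. KO-only members were the more numerous in 301 clusters, WT-only members in 356, and the numbers were equal in 254. Wide surpluses were few: 60 clusters had at least 3 more KO-only than WT-only members and 57 had the opposite, while a surplus of at least 4 was found in 28 clusters for KO and in 14 for WT. Only 7 clusters had no shared member.

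**Figure D2:**
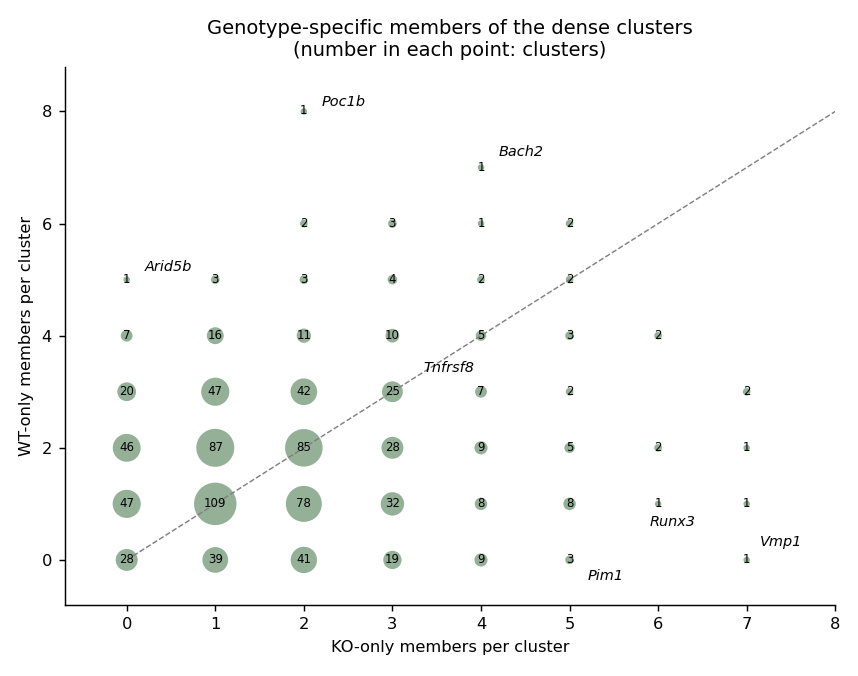
Each point stands for the clusters with a given number of KO-only members (x axis) and WT-only members (y axis); the number printed is how many clusters fall there, point area follows it, and the dashed line marks equal numbers. Most clusters lie at 1 to 3 of each kind, with Vmp1, Runx3 and Pim1 on the KO side, Poc1b, Arid5b and Bach2 on the WT side, and Tnfrsf8 among the 25 clusters at 3 of each.

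Adjacent genotype-specific members were compared to see whether neighbours belonged to the same class. Of 418 adjacent pairs no more than 500 bp apart, 377 (90.2%) held 1 KO-only and 1 WT-only peak. At so short a distance the peaks of the lists can mark the same site at shifted positions, and this was not tested further. Of 981 pairs further apart, 240 were both KO-only (24.5%), 245 were both WT-only and 496 were 1 of each (50.6%). In stretches of 2 to 5 merged peaks the shares over 2087 such pairs were 23.9% both KO-only, 33.5% both WT-only and 42.6% 1 of each. KO-only members had a WT-list peak within 0.5 kb in 31.3% of cases, against 26.8% of other KO-only peaks, and WT-only members had a KO-list peak that close in 27.2%, against 18.8% of other WT-only peaks; the rule on density favours near neighbours by itself.

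Members were less often at gene starts than the remaining peaks. Within 1 kb of a coding gene start lay 16.6% [15.8 to 17.5] of members and 23.3% [22.9 to 23.7] of other merged peaks, with starts known here for 79.6% of coding genes. Gene bodies away from a start held 45.9% of members and 39.8% of other peaks, and 37.5% of members and 37.0% of other peaks lay between genes. Counted at either end of a gene, which needs no strand, the shares were 20.5% of members and 27.1% of other peaks. The gap was widest among shared peaks, of which 21.0% [19.8 to 22.3] of members and 31.9% [31.3 to 32.6] of others were at a start. KO-only peaks were there in 11.3% of members and 13.8% of others, and WT-only peaks in 10.6% of members and 10.1% of others. The share of members at a start was lower in larger clusters, with 18.2% in clusters of 6 to 7 and 13.5% in clusters of 15 or more. In stretches of 5 merged peaks, just outside the rule, 19.3% of peaks were at a start, against 18.99% in clusters of 6. The lower share was thus not particular to stretches that met the rule.

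Shared members were more frequent in clusters that overlapped several genes. Of the 911 clusters, 118 overlapped no coding gene, 431 overlapped 1 and 177 overlapped 3 or more, and 182 lay with every member inside 1 gene body. In clusters over 3 or more genes 64.3% [61.9 to 66.7] of members were shared and 36.6% were at a start. In clusters over 1 gene 53.3% [51.6 to 55.1] were shared and 9.93% were at a start, and in clusters over no gene 53.1% were shared. The outermost members on each side were shared in 60.8% [58.5 to 63.0] of cases and inner members in 55.3% [53.9 to 56.6]; where a cluster ends is set by the rule.

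The order of rows in each list was read as a rank of peak strength, an inference that the labels do not state. Positions are percents of the list, with 0 at its top. Members stood higher than other peaks: the median position was 43.6 for members and 51.8 for other peaks in the KO list, and 43.0 and 51.5 in the WT list. The gap was widest for genotype-specific peaks. KO-only members had a median position of 55.2, against 75.6 for other KO-only peaks, and WT-only members had 63.9, against 78.3 for other WT-only peaks. For shared peaks it was 38.3 for members and 42.8 for others in the KO list, and 36.0 and 38.8 in the WT list.

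In the upper 3 of 4 parts of each list, members were less often shared than other peaks, and in part 4 they were not. Each list was split by row order into 4 equal parts. In part 1 of the KO list, at its top, 88.8% of members and 93.3% of other peaks were shared, in part 2 74.2% of members and 83.0% of others, in part 3 66.5% of members and 73.0% of others, and in part 4 52.3% of members and 52.2% of others. In the WT list the shares for members and for others were 92.4% and 95.3% in part 1, 79.5% and 85.6% in part 2, 61.2% and 66.3% in part 3, and 41.7% and 37.7% in part 4. The composition of the parts differed as well, since 34.3% of members and 59.7% of other peaks in part 1 of the KO list were at a gene start, with 38.5% and 60.5% in the WT list, and the part of start sites in the gap was not tested. The rule counts a pair of unshared peaks as 2 members and a shared site as 1, which can favour unshared peaks. What part this has in the gap was not tested. In the clusters drawn from 1 list, given above, the KO shares were 90.2% against 92.8% in part 1, 74.8% against 82.1% in part 2 and 67.0% against 72.4% in part 3. The WT shares were 94.2% against 94.9%, 81.6% against 84.7% and 62.9% against 65.8%. In part 4 they were 53.1% against 52.2% for KO and 41.2% against 37.95% for WT.

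**Figure D3:**
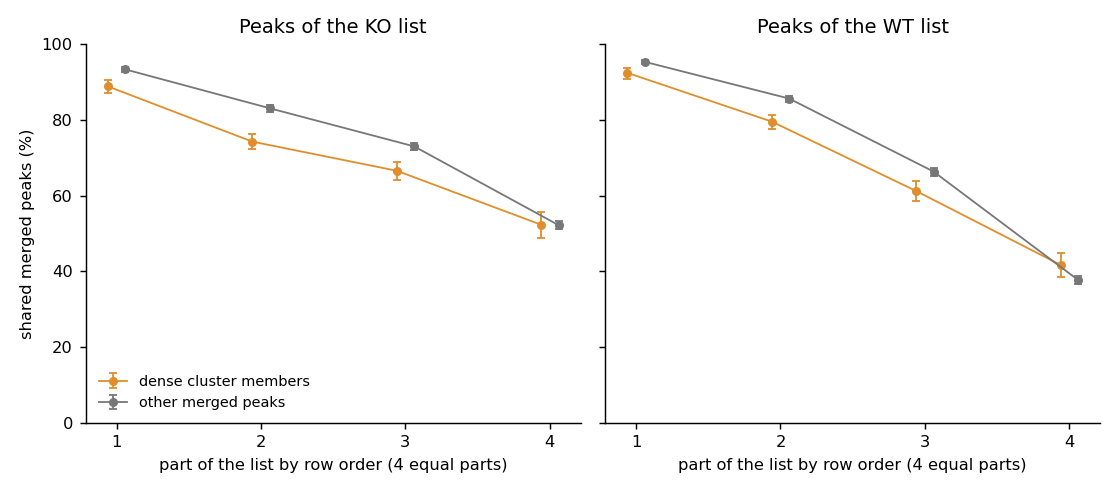
Percent of merged peaks found in both lists in 4 equal parts of the list in row order (1 is the top), for the KO list (left) and the WT list (right); orange points are dense cluster members, grey points are other merged peaks, and bars are exact 95% intervals. Members lie below the other peaks in parts 1 to 3 of both lists and at or above them in part 4.

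The most crowded cluster spanned 2 receptor genes of the tumour necrosis factor family. It ran over Tnfrsf1b, which encodes TNFR2, a receptor that supports Treg cells, and Tnfrsf8, which encodes CD30 (chr4:145194746-145319679). Of its 25 members, 3 were KO-only, 3 were WT-only and 19 were shared, and 8 lay in Tnfrsf1b and 9 in Tnfrsf8. Its highest member (chr4:145236105-145236350) stood at position 0.435 of the KO list and 0.968 of the WT list, among the first sites of both. The 3 KO-only members stood at positions 35.3, 15.7 and 52.7 of the KO list and the 3 WT-only members at 38.4, 56.1 and 46.7 of the WT list. The core of this cluster was thus common to both genotypes.

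Immune gene blocks and signalling genes filled most of the other large clusters. Nlrc5, a transactivator of MHC class I genes, had 22 members, with 5 KO-only, 6 WT-only and 11 shared (chr8:94324281-94458861). The block with Lta, Tnf and Ltb, which encode cytokines of the tumour necrosis factor family, had 21 members, with 3 KO-only, 5 WT-only and 13 shared (chr17:35165145-35241750). The antigen-processing block with H2-DMa, Tap1 and Brd2 had 20, with 5 KO-only, 4 WT-only and 11 shared (chr17:34119360-34219037). Shared members were the most numerous class in each of these 3 blocks. Clusters with 19 members lay, among other places, over Lpcat3 and Ptpn6, over Cyth4 and Rac2, and inside Prkch, a protein kinase C gene whose body held every member (4 KO-only, 6 WT-only, 9 shared). Prkcq, the protein kinase C of the T cell receptor synapse, had 18 (4 KO-only, 4 WT-only, 10 shared). Ugcg, the enzyme that makes glucosylceramide, also had 18 (3 KO-only, 2 WT-only, 13 shared). Atxn1, a transcriptional repressor, had 17 inside its body (4 KO-only, 2 WT-only, 11 shared), and Il6st, the shared signalling chain of interleukin-6 family receptors, had 17 (2 KO-only, 4 WT-only, 11 shared). Clusters at Rex2 with 23 members and at the histone gene H2bc6 with 21 lie in families of near-identical genes, where the placing of reads is uncertain.

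Runx3 had one of the widest surpluses on the KO side. Runx3, a transcription factor of the CD8 and cytotoxic T cell programmes that also acts in Treg cells, had 13 members over 70.0 kb (chr4:135066909-135136924), with 6 KO-only, 1 WT-only and 6 shared. Most of the cluster lay before the gene, and 2 members were in its body. The shared promoter peak stood at position 4.82 of the KO list and 18.6 of the WT list. The 6 KO-only members stood at 44.6, 29.7, 85.8, 35.3, 66.4 and 78.3 of the KO list, and the WT-only member at 80.0 of the WT list. The KO-only sites thus spread from the upper to the lower part of that list.

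Pim1 and Vmp1 had KO-only members and no WT-only member. Pim1, a kinase gene downstream of STAT signalling, had 6 members over 23.0 kb (chr17:29490377-29513342), with 5 KO-only and 1 shared. Its KO-only members included the promoter peak printed above at position 26.3 of the KO list, and 4 sites past the gene at 47.7, 63.1, 63.8 and 72.0. The shared peak in the gene body stood at 10.6 of the KO list and 13.1 of the WT list. Vmp1, a membrane protein gene of autophagy, had 10 members over 56.1 kb (chr11:86568623-86624676), with 7 KO-only and 3 shared. The strongest KO-only members there stood at 20.7 and 26.6 of the KO list, and the others between 56.7 and 93.8. Neither cluster would have been dense from the WT list alone.

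The rest of the 8 clusters with the widest KO surplus lay at Lbh, Pnkd, Rhoh, Laptm5 and 4930467E23Rik. Lbh, a transcription cofactor, had 14 members (7 KO-only, 2 WT-only, 5 shared). The cluster over Pnkd and Slc11a1, a metal transporter of phagocytes, also had 14 (7 KO-only, 1 WT-only, 6 shared). Of these, 4 lay in Pnkd and 1 in Slc11a1. Rhoh had 16 (7 KO-only, 3 WT-only, 6 shared), and Laptm5, a lysosomal protein that lowers T cell receptor levels, had 8 (5 KO-only, 0 WT-only, 3 shared). A cluster at 4930467E23Rik had 6 (5 KO-only, 0 WT-only, 1 shared) and lies in a repeated gene family where the placing of reads is uncertain.

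WT-only members prevailed at Poc1b and Arid5b. Poc1b, a centriole protein gene, had 14 members over 77.0 kb (chr10:99152345-99229344), with 2 KO-only, 8 WT-only and 4 shared. Both KO-only members there had a WT-only member next to them: chr10:99161959-99162151 beside chr10:99162184-99162402, and chr10:99210996-99211188 beside chr10:99211233-99211451. Arid5b, which encodes a DNA-binding partner of a histone demethylase, had 9 members inside its body over 35.7 kb (chr10:68222248-68257922), with 0 KO-only, 5 WT-only and 4 shared. The WT-only members of Arid5b stood at 73.6, 31.1, 31.7, 52.7 and 91.2 of the WT list. All of the KO peaks in this cluster fell on sites that WT cells shared.

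Tagap had 17 members (2 KO-only, 6 WT-only, 9 shared), among them the promoter peak printed above at position 23.9 of the WT list. Ptgir, the prostacyclin receptor, had 13 (1 KO-only, 5 WT-only, 7 shared). Pip5k1c, a lipid kinase gene, had 10 (0 KO-only, 4 WT-only, 6 shared), and a cluster nearest to Tank, a regulator of NF-kB and interferon signalling, had 9 (0 KO-only, 4 WT-only, 5 shared). A cluster of 10 at Zfp979 (0 KO-only, 4 WT-only, 6 shared) lies among near-identical zinc finger genes. The WT-only sites in these clusters numbered 4 to 6 each, and each cluster held more shared sites than that.

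Some clusters had the same or nearly the same sites in both lists. A cluster nearest to Chd2, a chromatin remodeller gene, had 10 shared members and no other. Adgre5, which encodes the adhesion receptor CD97, had 8 shared members and no other, and its highest member (chr8:83756799-83757017) stood at 0.109 of the KO list and 0.0719 of the WT list. Cmtm7 had 10 shared members of 11 (0 KO-only, 1 WT-only), and the cluster over Cx3cr1 and Ccr8, chemokine receptor genes of which Ccr8 marks tissue Treg cells, had 9 of 10 (1 KO-only, 0 WT-only). A histone gene cluster at H1f2 had 10 of 11 (0 KO-only, 1 WT-only), with the same doubt about near-identical genes.

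**Figure D4:**
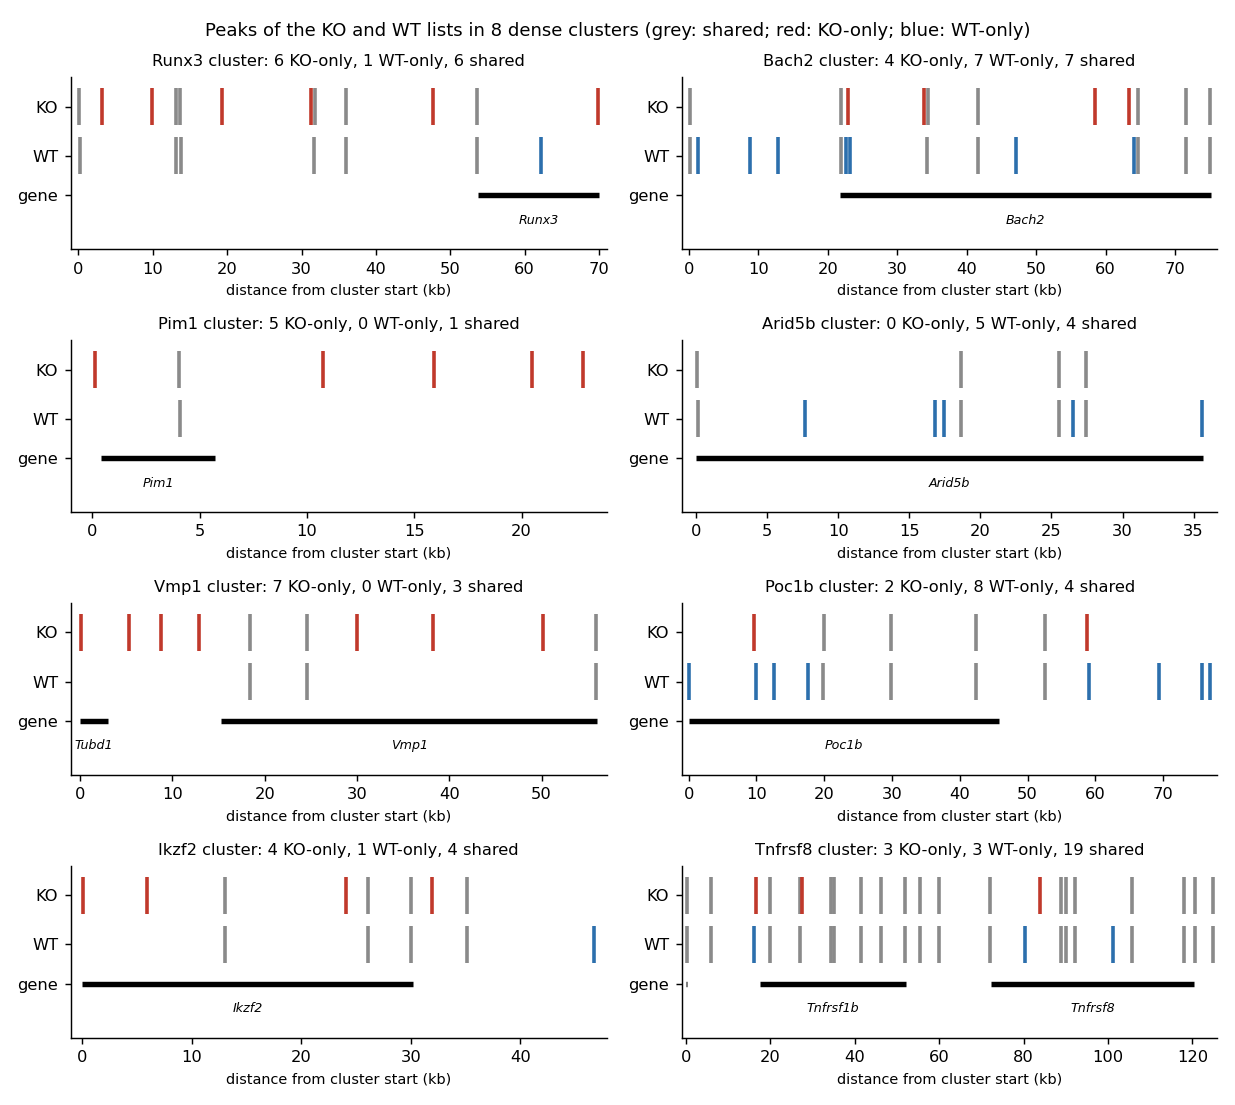
Peaks of the KO list (upper row) and the WT list (lower row) along 8 dense clusters, by distance from the cluster start in kb; grey ticks are shared peaks, red ticks KO-only and blue ticks WT-only, each drawn at the centre of its peak and not to its width, and black bars are coding genes, clipped to the cluster. Runx3, Pim1, Vmp1 and Ikzf2 show more red than blue ticks, Bach2, Arid5b and Poc1b more blue than red, and Tnfrsf8 shows 19 shared sites.

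Several lists of T cell genes held dense clusters at larger shares of their members than all coding genes do. A gene carries a cluster where its body overlaps the span of the cluster. Of 20665 coding genes on chromosomes 1 to 19, 1577 did (7.63%), and of 276 distinct genes in all 16 lists, those of other cells and functions included, 88 did (31.9% [26.4 to 37.7]). The lists were chosen with earlier results of these data known, so the counts describe them and test nothing. Genes that carried a cluster had a median length of 16.1 kb, and the remaining genes one of 17.6 kb. List genes were longer, with a median of 21.7 kb against 17.5 kb for all coding genes, and the medians were 59.3 kb both for naive and resting factors and for T cell receptor signalling genes. What part of the list shares goes with length was not tested. Of the 88 genes, 83 had a member in the gene body, and Tnfrsf18, Tyrobp, Cd79a, Elane and Cd68 were reached only by the span of a cluster. The 88 genes carried 90 distinct clusters with 822 members, of which 165 were KO-only, 161 were WT-only and 496 were shared.

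**Figure D5:**
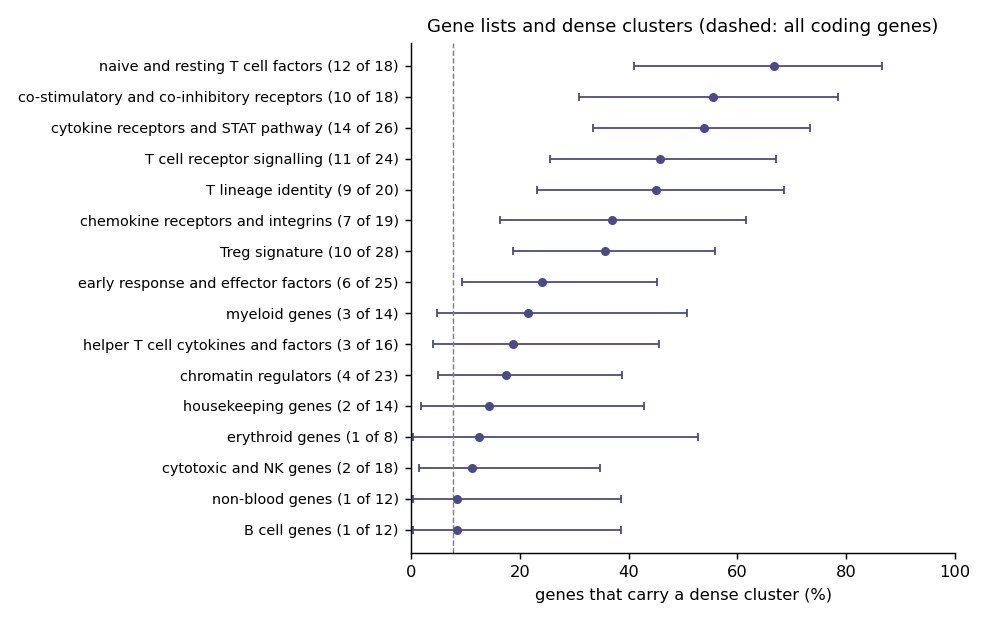
Percent of the genes of each list on chromosomes 1 to 19 whose body overlaps a dense cluster; points are shares, bars are exact 95% intervals, the numbers of genes stand beside each name, and the dashed line is the 7.63% of all coding genes. Naive and resting T cell factors are at the top with 12 of 18 genes, and B cell and non-blood genes at the bottom with 1 of 12 each.

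Factors of naive and resting T cells carried clusters most often, at 12 of 18 genes (66.7%), and their 14 clusters held 18 KO-only, 35 WT-only and 66 shared members. KO-only members were 34.0% [21.5 to 48.3] of the genotype-specific ones, against 49.2% over all clusters and 44.7% over the merged peaks outside them; the interval includes the 44.7%. KO-only members were the more numerous in 2 of these clusters and WT-only members in 9. Bach2, a repressor that keeps Treg cells in a resting state, had 2 clusters. The larger (chr4:32216620-32291736) had 18 members with 4 KO-only, 7 WT-only and 7 shared, and the other had 14 with 1 KO-only, 4 WT-only and 9 shared. Within the larger one, the shared peak chr4:32258155-32258379 stood at 3.76 of the KO list and 6.02 of the WT list, near the top of each. Its KO-only sites stood between 9.09 and 79.4 of the KO list, and its WT-only sites between 23.9 and 88.2 of the WT list. Foxp1, a forkhead factor of T cell quiescence, had 11 (4 KO-only, 4 WT-only, 3 shared) and 7 (1 KO-only, 3 WT-only, 3 shared), and Bcl2, a survival gene, had 6 (0 KO-only, 3 WT-only, 3 shared). Tcf7 and Lef1, factors of the Wnt pathway, each had 7, with 0 KO-only, 1 WT-only and 6 shared at Tcf7 and 1 KO-only, 3 WT-only and 3 shared at Lef1. Ccr7, a chemokine receptor for lymph node entry, was one of the 2 clusters with more KO-only members, with 1 KO-only, 0 WT-only and 7 shared. Foxo1, Klf2, S1pr1, Ets1 and Elf1 also carried a cluster, of 6 to 9 members each.

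T lineage genes had 22 KO-only and 10 WT-only members over 10 clusters, or 68.8% KO-only [49.99 to 83.9], against 49.2% over all genotype-specific members. KO-only members prevailed in 5 of these clusters and WT-only members in 0. Runx3, described above, supplied 6 of the KO-only members. The difference from the list of naive and resting factors was not tested. Ikzf3, which encodes Aiolos, had 12 members (4 KO-only, 2 WT-only, 6 shared), and Ikzf1, which encodes Ikaros, had 8 (2 KO-only, 0 WT-only, 6 shared). Tox had 11 with 2 of each genotype-specific kind. Cd247 had clusters of 10 (1 KO-only, 1 WT-only, 8 shared) and 7 (3 KO-only, 3 WT-only, 1 shared). Runx1, Thy1 and Cd5 each had 6, with 1 KO-only, 0 WT-only and 5 shared members at Runx1. Bcl11b, the targeted gene, had 6 members (chr12:107964609-108006503), 2 KO-only, 0 WT-only and 4 shared, with the shared site near its start at 21.6 of the KO list and 27.2 of the WT list.

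Treg signature genes carried clusters at 10 of 28 genes (35.7%), with 18 KO-only, 16 WT-only and 63 shared members over 9 clusters. Ctla4 had 13 members over 63.3 kb (2 KO-only, 2 WT-only, 9 shared). Its promoter peak printed above stood at 7.22 of the KO list and 3.56 of the WT list, and a WT-only site 7.54 kb past the start stood at 8.37 of the WT list. Il2ra had 9 (2 KO-only, 2 WT-only, 5 shared), and its 2 KO-only and 2 WT-only sites all lay inside the gene body. Ikzf2, which encodes Helios, had 9 (4 KO-only, 1 WT-only, 4 shared), with KO-only sites at 56.3, 49.6, 36.3 and 28.8 of the KO list and the WT-only site at 63.4 of the WT list. Rgs1, a regulator of chemokine receptor signalling, had 12 with 4 of each class. There, KO-only chr1:144258348-144258540 lay beside WT-only chr1:144258583-144258801. Likewise, KO-only chr1:144283498-144283690 lay between WT-only chr1:144283251-144283469 and WT-only chr1:144283797-144284015. Whether such neighbours mark the same site was not tested. The neighbouring receptor genes Tnfrsf4 and Tnfrsf18 fell under 1 cluster of 6 members, all shared. Icos, Nrp1 and Il10 carried clusters of 7 to 8 members, and Tnfrsf1b the largest cluster described above.

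Cytokine receptor and STAT genes carried clusters at 14 of 26 genes (53.9%), with 29 KO-only, 22 WT-only and 70 shared members over 13 clusters. Stat6, which transmits interleukin-4 signals, had 13 (5 KO-only, 3 WT-only, 5 shared). Cish, a cytokine-induced inhibitor, also had 13 (2 KO-only, 1 WT-only, 10 shared), and the adjoining Stat5a and Stat5b had 10 in 1 cluster (1 KO-only, 1 WT-only, 8 shared). KO-only members prevailed in 4 of the 13 clusters, WT-only members in 1, and 8 were even. Il2rb, Il6ra, Il12rb1, Ifnar1, Jak1, Stat4 and Socs3 carried clusters of 6 to 9 members. T cell receptor signalling genes followed at 11 of 24 (45.8%), with 24 KO-only, 23 WT-only and 62 shared members. Rasgrp1, an activator of Ras, had 11 (3 KO-only, 1 WT-only, 7 shared), Dgkz, an enzyme that removes diacylglycerol, had 13 (3 KO-only, 3 WT-only, 7 shared), and Ubash3b, a phosphatase, had 6 (0 KO-only, 3 WT-only, 3 shared). Lck, Lcp2, Vav1, Nfatc1, Nfatc2 and Ptpn22 carried clusters of 6 to 8 members.

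Co-stimulatory and co-inhibitory receptor genes carried clusters at 10 of 18 genes (55.6%), with 6 KO-only, 14 WT-only and 61 shared members over 9 clusters. KO-only members were 30% [11.9 to 54.3] of the genotype-specific ones, an interval that includes the 49.2% over all clusters. KO-only members prevailed in 0 of these clusters, WT-only members in 4, and 5 were even. Cd69, an early activation marker, had 15 (3 KO-only, 3 WT-only, 9 shared), Cd83 had 10 (0 KO-only, 3 WT-only, 7 shared) and Cd5, an inhibitor of T cell receptor signalling, had 6 shared members only. Cd27, Lag3, Havcr2 and Icos carried clusters of 6 to 9 members. Chemokine receptors and integrins stood at 7 of 19 (36.8%), with 14 KO-only, 10 WT-only and 52 shared members. Itgal, a chain of the integrin LFA-1, had 16 (2 KO-only, 2 WT-only, 12 shared), and Ccr4 had 14 (3 KO-only, 3 WT-only, 8 shared). Cxcr5, Itga4 and Itgb2 carried clusters of 7 to 13 members.

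Early response and effector factors carried clusters at 6 of 25 genes (24.0%), with 14 KO-only, 8 WT-only and 36 shared members over 7 clusters. Nr4a1, a sensor of T cell receptor signals, had 13 (2 KO-only, 3 WT-only, 8 shared), Myb had 10 (4 KO-only, 3 WT-only, 3 shared) and Junb had 7 shared members only. Irf4 had 9 (1 KO-only, 1 WT-only, 7 shared) and Nfil3 had 7 (3 KO-only, 1 WT-only, 3 shared). Helper T cell genes stood at 3 of 16 (18.8% [4.05 to 45.7]), an interval that includes the 7.63% of all coding genes: Tbx21, which encodes T-bet, had 7 members (4 KO-only, 2 WT-only, 1 shared), Ahr had 8 (1 KO-only, 3 WT-only, 4 shared), and Rora had clusters of 6 (3 KO-only, 0 WT-only, 3 shared) and 6 (1 KO-only, 0 WT-only, 5 shared). All Tbx21 members stood in the lower part of the lists, the KO-only ones between 67.5 and 93.8 of the KO list and the WT-only ones at 99.0 and 71.3 of the WT list.

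Chromatin regulators stood at 4 of 23 (17.4%), namely Arid5b, Hdac4, Hdac7 and Kdm6b, and cytotoxic and NK genes at 2 of 18 (11.1%), with Fasl at 17 members (3 KO-only, 1 WT-only, 13 shared) and Tyrobp. Myeloid genes stood at 3 of 14 (21.4%), namely Fcgr3, Elane and Cd68, erythroid genes at 1 of 8 with Tal1, and housekeeping genes at 2 of 14 (14.3%), Tfrc among them. B cell genes stood at 1 of 12 with Cd79a and non-blood genes at 1 of 12 with Pecam1 (8.33% each). Of these, the B cell and non-blood shares lie near the 7.63% of all coding genes, and the intervals of all 7 lists in this paragraph include it.

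Small RNA genes also fell inside the clusters. Of 917 RefSeq microRNA hairpins on chromosomes 1 to 19, 55 (6.00% [4.55 to 7.74]) lay within the span of 49 clusters, a comparison made after the values were seen. Of coding genes, 7.63% overlapped a cluster span with any part of the body, a share inside that interval. Mir21a, a microRNA gene of activated T cells, lay in the Vmp1 cluster (chr11:86584067-86584158) with a KO-only member 2.497 kb away, and Mir26b lay in the Pnkd cluster (chr1:74394310-74394394) with a KO-only member 2.06 kb away. Mir23a, Mir27a and Mir24-2 lay together in a cluster of 8 members (2 KO-only, 1 WT-only, 5 shared), with a shared member 1.43 kb from Mir24-2. The main mature forms of these 5 genes follow, with the seed in capitals, from RefSeq on GRCm38.p6. The 5 seeds differ from each other, and whether the microRNAs were expressed was not measured.
miR-21a-5p: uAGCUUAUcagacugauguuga
miR-26b-5p: uUCAAGUAauucaggauaggu
miR-23a-3p: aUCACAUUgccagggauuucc
miR-27a-3p: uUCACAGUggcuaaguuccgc
miR-24-3p: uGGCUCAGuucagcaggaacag

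Promoter sequences were compared over all RefSeq windows, from 250 bases before to 50 bases after a gene start. Of 20085 windows on chromosomes 1 to 19, 940 touched a member (81 KO-only, 82 WT-only, 777 shared), 8090 touched another peak and 11055 touched none. Their median GC content was 61.7% with a member, 62.3% with another peak and 51.3% with none. The ETS motif AGGAAGT was in 11.6% [9.62 to 13.8] of member windows, 8.81% of windows on other peaks and 9.08% of all windows. The E-box CACCTG was in 19.8% of member windows and 16.7% of windows on other peaks and 20.03% of all windows, and the AP-1 motif TGANTCA in 5.53% of member windows, 3.98% of windows on other peaks and 7.06% of all windows. The RUNX motif TGTGGTTT was, in the same order, in 1.70%, 0.989% and 1.65%, and the BCL11 motif TGACCA in 12.8%, 10.4% and 12.6%. The SP/KLF motif GGGCGG was in 66.1%, 70.1% and 47.0%, and the CTCF motif AGGGGGCG in 11.7%, 12.4% and 8.28%. Both strands were searched. Of the 14 motifs, ETS was the 1 for which the intervals of member windows and of windows on other peaks (8.20 to 9.45%) did not overlap. A match of letters is a description and not a bound site.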

How the data were processed

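ATAC-seq peaks of Treg cells were given as 1 list per group, so peaks belong to a group of 3 samples and not to a sample. The submitters' processing notes name HOMER 4.10.1, HISAT2 2.1.0, SAMtools 1.3, cutadapt 1.12, Trim Galore 0.4.2, deepTools and FastQC, and build mm10. Not given in the sources used here are the role of each tool, the peak threshold, any shift of reads for the transposase and how samples were combined. The authors' deposited score column holds the value 1 throughout and gives no height. Most peaks have the usual width of their list, 193 bp for KO and 219 bp for WT, so a WT peak is somewhat more likely to overlap a neighbour. The depth per sample is unknown, and intervals cover counting error only.

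Everything after the lists was computed with Python 3.11.15, numpy 2.4.6, pandas 2.3.3, scipy 1.17.1 and matplotlib 3.10.9. Merging and joining were tested on simulated data against bedtools 2.31.1, with 0 differences. Genes came from RefSeq tables of GRCm38.p6, and starts from the RefSeq promoter table, which holds 16457 of 20665 coding genes. A motif search over the peaks themselves was planned and needed a genome, which was not used here; promoter windows were searched in its place. A cluster is named by the coding gene whose body overlaps most of its members, and otherwise by the nearest one, and the gene that a site regulates is unknown. Named were the 15 clusters with most members, the 8 with the widest surplus in each direction, the 5 with 8 or more members and the highest shared percent, and list genes with most members. The members and the gene lists were chosen with earlier results of these data known. The microRNA comparison, the Ctla4 and Il2ra promoters and further list genes were chosen after their values were seen. Alternatives were other joining distances, other minimum sizes, merging across 100 bp, a shortened WT list, the first 50% of each list, other windows around starts and removal of near-identical families. A few items that the rule names are not reported here.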

Additional observations from a re-analysis of the deposited data

Results flagged for a closer look

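The sex chromosomes lie outside the rule, and the same rule applied to chromosome X gave 9 clusters with 93 members of 1143 merged peaks. Of these members 15 were KO-only, 46 were WT-only and 32 were shared, a signal in data that no comparison above uses. A cluster of 17 members at Gm35612 held 1 KO-only, 15 WT-only and 1 shared member, and a cluster of 14 at 4933407K13Rik held 1 KO-only and 13 WT-only members. Most of the WT-only members on chromosome X thus came from these 2 clusters, and each remaining cluster there held at most 4. Whether the 2 clusters lie in families of near-identical genes, where the placing of reads is uncertain, was not tested. Labels give neither the sex of the animals nor how samples were pooled. Chromosome Y had 1 cluster of 7 members, with 1 KO-only, 2 WT-only and 4 shared. With 1 list per group no sample could be set against the others.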

How the results depend on the processing

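With 1 list per group, no value has a replicate check, the depth is unknown, and each genotype-specific member rests on a call made by the authors at a threshold not given here. No paired analysis was possible because each group has 1 pooled list, and leaving out a replicate could not be done for the same reason. The motif search over peaks of 200 bp was not run, and near-identical families were not removed from clusters drawn from 1 list.

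The number of clusters follows the rule. Joining at 5 kb gave 23 clusters with 150 members, of which 49.3% were shared and 14% at a start, with a median WT list position of 49.1 and 10 clusters with a KO-only surplus; 78.6% of KO peaks in KO-defined and 63.4% of WT peaks in WT-defined clusters were overlapped. Joining at 25 kb gave 2053 clusters with 20730 members, 58.1% shared, 46.7% KO-only among genotype-specific members, 19.8% at a start, median positions of 45.9 in the KO list and 46.1 in the WT list, and 678 clusters with a KO-only surplus. At least 5 merged peaks gave 1510 clusters and 505 with a KO-only surplus. At least 10 gave 177 clusters with 2199 members, 51.1% KO-only, 13.96% at a start, 64 with a KO-only surplus, and 27 list genes with a cluster. Merging across 100 bp raised the shared percent to 61.0%. With the WT list shortened the KO-only share was 51.4% and the median WT position 41.8. The first 50% of each list gave 222 clusters with 1572 members, 58.3% shared, 51.4% KO-only, 20.9% at a start, median positions of 25.8 and 26.3 in the KO and WT lists, 86 clusters with a KO-only surplus and 72.2% for KO-defined clusters. The share at a start was 20.3% within 2.5 kb and 20.5% at either gene end. The other 46 of 84 such values moved by less than their interval or, for counts, less than 1.5 times. The cause of each move beyond the change of rule was not tested.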

Other observations

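A total of 6 clusters lay in the first 4 Mb of a chromosome. One of them, nearest to Alkbh8 (chr9:3002036-3024573), had 6 members, all shared, that stood at the very top of both lists. Whether the placing of reads there is uncertain was not tested. Leaving these 6 clusters out moved neither the shared percent nor the KO-only share by more than its interval.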
